A study of Mus musculus with 2 samples.

Results

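The authors' list of Sap130 peaks in the embryonic mouse brain contained 1963 peaks that carried no gene and lay outside every gene the list did label. They made up 12.1% of the 16231 peaks (95% interval 11.6 to 12.6) and 54.9% of the 3575 peaks without a gene. Such a peak has no gene in the annotation field, lies on a nuclear chromosome, is under 2000 bp wide, and has its centre outside the transcript of every gene named on another line of the list for that chromosome. These peaks were therefore chosen by their width, their missing gene and their position relative to labelled transcripts, and those values are given below as a description. The other peaks comprised 1385 unlabelled peaks under 2000 bp inside labelled genes, 222 unlabelled peaks of 2000 bp or more, 12656 labelled peaks and 5 mitochondrial peaks. The name needs 1 qualification, since 203 of the 1963 peaks (10.3%) lay inside the RefSeq span of a gene that carried a label elsewhere, the RefSeq span being longer than the transcript printed in the list.

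The assay was ChIP-seq (chromatin immunoprecipitation and sequencing), which uses an antibody to recover the DNA bound by a protein. The material was brain of mouse embryos of the genotype B6 wildtype at stage E13.5, with no further treatment named. A rabbit anti-Sap130 antibody, 2 µg of it, was used for the 1 ChIP library, and the 1 input library holds chromatin without precipitation. Congenital heart disease is named in the title of the series, and the labels state neither the number of embryos nor whether they were pooled.

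The table used here gives positions and labels, and no height, enrichment, p-value or read total of a peak, which leaves the depth of the ChIP and input libraries unknown. With 1 library of each kind no difference can be set against the spread between replicates. All intervals are exact (Clopper-Pearson) 95% binomial intervals that treat peaks or genes as independent and cover counting error only. Where a count is 0, the share said to be allowed is 3 counts of the total. The running number of a peak is called its place, with 1 as the first peak, and the quantity that ordered the list is not stated.

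Sap130 belongs to the Sin3-HDAC complex, a corepressor that carries histone deacetylases and is brought to chromatin by sequence-specific factors. Peaks of such a complex away from labelled promoters can lie at promoters that the label missed, at enhancers of developmental genes, or at genes read by other RNA polymerases. tRNA genes and Y RNA genes belong to the last kind, since RNA polymerase III transcribes them. MicroRNAs such as the let-7 family, miR-9, miR-137 and miR-7 are short RNAs that repress messenger RNAs through a seed near their 5′ end, and are well known in neural development.

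Some of the peaks lay directly on annotated starts, and the promoter windows at 6 of these starts are printed here. They are the first 6 genes by place with such a peak over the start and a window in the RefSeq table (GRCm38.p6), each shown from 250 bp before to 50 bp after the start, in the direction of the gene. Capitals mark matches to the motifs CCGGAAG (bound by ETS factors), CCAAT (bound by NF-Y) and GGGCGG (bound by Sp factors) on either strand, so that a match on the other strand appears as the reverse complement. The E-box CACGTG, the YY1 motif AAGATGGC, the CRE motif TGACGTCA and the NRF1 motif were also searched on both strands and had no match in these 6 windows. No 2 matches overlapped among the capitals. The windows are chr5:124249711-124250010 on the minus strand for Pitpnm2, chr5:76588449-76588748 on the plus strand for Cep135, chr4:42950146-42950445 on the plus strand for Dnajb5, chr8:64849875-64850174 on the minus strand for Klhl2, chr10:80676244-80676543 on the minus strand for Mknk2 and chr6:117879383-117879682 on the plus strand for the long non-coding RNA (lncRNA) gene Gm38882.
Pitpnm2: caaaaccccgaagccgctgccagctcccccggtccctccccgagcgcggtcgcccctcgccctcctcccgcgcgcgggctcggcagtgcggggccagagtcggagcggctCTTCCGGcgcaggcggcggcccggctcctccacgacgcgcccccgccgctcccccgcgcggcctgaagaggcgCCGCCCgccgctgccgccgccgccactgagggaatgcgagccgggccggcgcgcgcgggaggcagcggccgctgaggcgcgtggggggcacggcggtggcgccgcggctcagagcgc
Cep135: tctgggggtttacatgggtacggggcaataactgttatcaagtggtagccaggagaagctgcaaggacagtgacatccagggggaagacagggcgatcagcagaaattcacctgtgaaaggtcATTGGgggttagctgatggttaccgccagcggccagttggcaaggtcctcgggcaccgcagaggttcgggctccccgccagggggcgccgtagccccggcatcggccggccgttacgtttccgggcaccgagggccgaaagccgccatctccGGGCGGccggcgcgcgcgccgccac
Dnajb5: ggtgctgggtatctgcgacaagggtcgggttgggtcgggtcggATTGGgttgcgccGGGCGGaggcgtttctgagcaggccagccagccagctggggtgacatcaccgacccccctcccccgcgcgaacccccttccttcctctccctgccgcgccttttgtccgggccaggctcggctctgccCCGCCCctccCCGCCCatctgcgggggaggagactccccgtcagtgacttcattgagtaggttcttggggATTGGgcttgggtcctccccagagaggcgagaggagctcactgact
Klhl2: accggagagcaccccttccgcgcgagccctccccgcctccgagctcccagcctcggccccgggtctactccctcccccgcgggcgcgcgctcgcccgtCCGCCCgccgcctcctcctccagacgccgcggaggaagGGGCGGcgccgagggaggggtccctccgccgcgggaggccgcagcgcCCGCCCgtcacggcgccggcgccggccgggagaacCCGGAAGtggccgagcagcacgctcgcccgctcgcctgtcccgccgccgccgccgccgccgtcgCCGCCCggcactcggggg
Mknk2: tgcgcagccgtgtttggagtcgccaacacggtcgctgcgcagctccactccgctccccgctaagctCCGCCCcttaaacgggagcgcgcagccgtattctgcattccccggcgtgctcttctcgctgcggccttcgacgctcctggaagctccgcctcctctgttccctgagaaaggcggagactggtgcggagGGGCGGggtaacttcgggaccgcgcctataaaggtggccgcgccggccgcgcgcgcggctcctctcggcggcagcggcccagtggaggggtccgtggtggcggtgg
Gm38882: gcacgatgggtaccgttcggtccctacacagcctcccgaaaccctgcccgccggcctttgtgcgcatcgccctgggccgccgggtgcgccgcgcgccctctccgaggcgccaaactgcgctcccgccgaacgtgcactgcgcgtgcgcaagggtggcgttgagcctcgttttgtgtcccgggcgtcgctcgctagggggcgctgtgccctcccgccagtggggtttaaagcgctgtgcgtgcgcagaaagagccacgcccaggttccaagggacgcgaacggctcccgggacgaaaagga

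CG dinucleotides were frequent in all 6 windows. Klhl2, whose product is a substrate adaptor of a cullin ubiquitin ligase, had 54, and Pitpnm2, a phosphatidylinositol transfer protein, had 53. Gm38882 had 40, Mknk2, a kinase of a translation initiation factor, had 39, Cep135, a centriole protein, had 27 and Dnajb5, a heat shock co-chaperone, had 21. Over all 32817 RefSeq windows the median was 7. Klhl2 had 4 matches to GGGCGG and 1 to CCGGAAG, and Dnajb5 had 3 matches to GGGCGG and 2 to CCAAT, whereas Gm38882 had none of the motifs. A match describes letters in the window and no binding site. The Mknk2 peak ended at 80676340 and the Cep135 peak began at 76588574, so part of each of these windows lay outside its peak. The 2 matches of Mknk2 lay in the part outside.

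A further set of sequences belongs to microRNAs whose hairpins lay within 10 kb of such a peak. They are shown for the hairpins with at least 2 such peaks that belong to the let-7, miR-99, miR-125, miR-137, miR-7 and miR-9 families, a choice made after the values were seen, together with let-7d of the same cluster. Each is the RefSeq mature 5′ to 3′ sequence of the arm named, with the seed (bases 2 to 8) in capitals.
mmu-let-7a-5p: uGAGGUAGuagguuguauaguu
mmu-let-7c-5p: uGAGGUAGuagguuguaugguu
mmu-let-7d-5p: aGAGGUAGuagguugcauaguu
mmu-let-7e-5p: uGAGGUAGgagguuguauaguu
mmu-let-7f-5p: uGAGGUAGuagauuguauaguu
mmu-miR-99a-5p: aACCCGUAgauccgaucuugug
mmu-miR-125a-5p: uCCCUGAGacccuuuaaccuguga
mmu-miR-137-3p: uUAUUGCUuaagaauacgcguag
mmu-miR-7a-5p: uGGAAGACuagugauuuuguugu
mmu-miR-9-5p: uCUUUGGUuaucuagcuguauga

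All 5 let-7 sequences carry the seed GAGGUAG, while the other 5 differ from it and from each other.

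Peaks outside labelled genes were narrow and stood late in the list. Their median width was 429 bp (quartiles 289 and 679, range 217 to 1999), compared with 396 bp for unlabelled peaks inside labelled genes and 740 bp for labelled peaks under 2000 bp. Their median place was 12286 (quartiles 9485.5 and 14422.5), against 13540 for unlabelled peaks inside labelled genes and 7043 for labelled peaks under 2000 bp. Only 327 of the 1963 (16.7%, 15.0 to 18.4) stood among the first 8115 peaks of the list, against 11.8% (10.1 to 13.6) of unlabelled peaks inside labelled genes and 58.8% (57.9 to 59.6) of labelled peaks. Together they covered 1078 kb. Just inside the width limit lay peaks of 1988 bp in Tln2, 1996 bp in St7 and 1999 bp near Osbp, and just outside it lay peaks of 2002 bp near Mid1ip1, 2004 bp near Ppara and 2028 bp near Nacad.

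**Figure D1:**
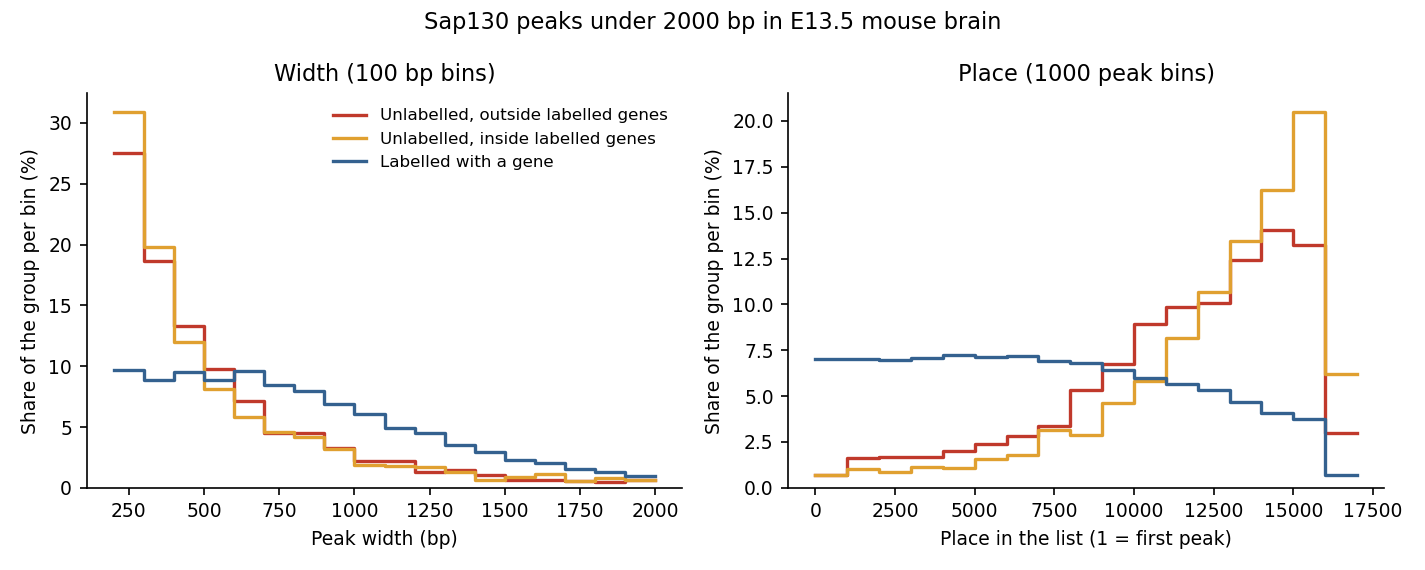
Share of each group of Sap130 peaks under 2000 bp by width (left, 100 bp bins) and by place in the authors' list (right, bins of 1000 peaks, the last bin being only partly filled); the groups are unlabelled peaks outside labelled genes (red), unlabelled peaks inside labelled genes (yellow) and labelled peaks (blue). Both unlabelled groups are narrow and late, with median widths of 429 and 396 bp against 740 bp.

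The first 10 of these peaks by place were all wider than the median of 429 bp. The earliest, a 944 bp peak at place 59 (chromosome 5, 142367137 to 142368081), had its centre 409 bp from an end of the lncRNA gene Gm31068 and 33888 bp upstream of Foxk1, which encodes a forkhead factor of the Sin3 complex. Place 153 was a 1094 bp peak over the start of Pitpnm2 (124249217 to 124250311 on chromosome 5). Place 172 was a 1455 bp peak in Sft2d3, a vesicle transport gene on chromosome 18, and place 181 a 432 bp peak outside all genes, 4993 bp upstream of Smim17 on chromosome 7. Place 274 was a 1054 bp peak in Tet3, which encodes an enzyme that oxidises methylcytosine, with its centre 451 bp from an end of the gene. Place 292 was a 1034 bp peak 1535 bp upstream of the labelled start of Foxo3, a forkhead factor of the insulin pathway, and only 60 bp from the edge of a labelled peak. The remaining 4 lay at Cep135 (783 bp, place 359), Pemt, which makes phosphatidylcholine (437 bp, place 520), Sipa1l2 (1340 bp, place 671) and Btbd19 (1009 bp, place 682).

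The peaks were spread over several kinds of position, in contrast to labelled peaks, most of which lie at protein-coding starts by the way they were labelled. Each peak was put in the first class that fitted. The RefSeq starts used here include none on chromosome 18, so the 42 peaks there could not be classed at a start. A tRNA gene lay within 250 bp of 112 peaks (5.71%, 4.72 to 6.83). The centre lay within 1 kb of the start of a protein-coding gene in 303 (15.4%, 13.9 to 17.1) and within 1 kb of the start of an lncRNA gene in 136 (6.93%, 5.84 to 8.14). Another end of a gene lay within 1 kb of 398 (20.3%, 18.5 to 22.1). A further 593 (30.2%, 28.2 to 32.3) were inside a gene but over 1 kb from every gene end, and 421 (21.4%, 19.6 to 23.3) were outside all RefSeq genes and over 1 kb from their ends. Peaks at protein-coding starts and at tRNA genes were the widest of the classes, with medians of 542 and 547.5 bp, and those outside all genes the narrowest, at 376 bp. By place, peaks at protein-coding starts stood earliest (median 10004) and those inside genes latest (median 13335).

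**Figure D2:**
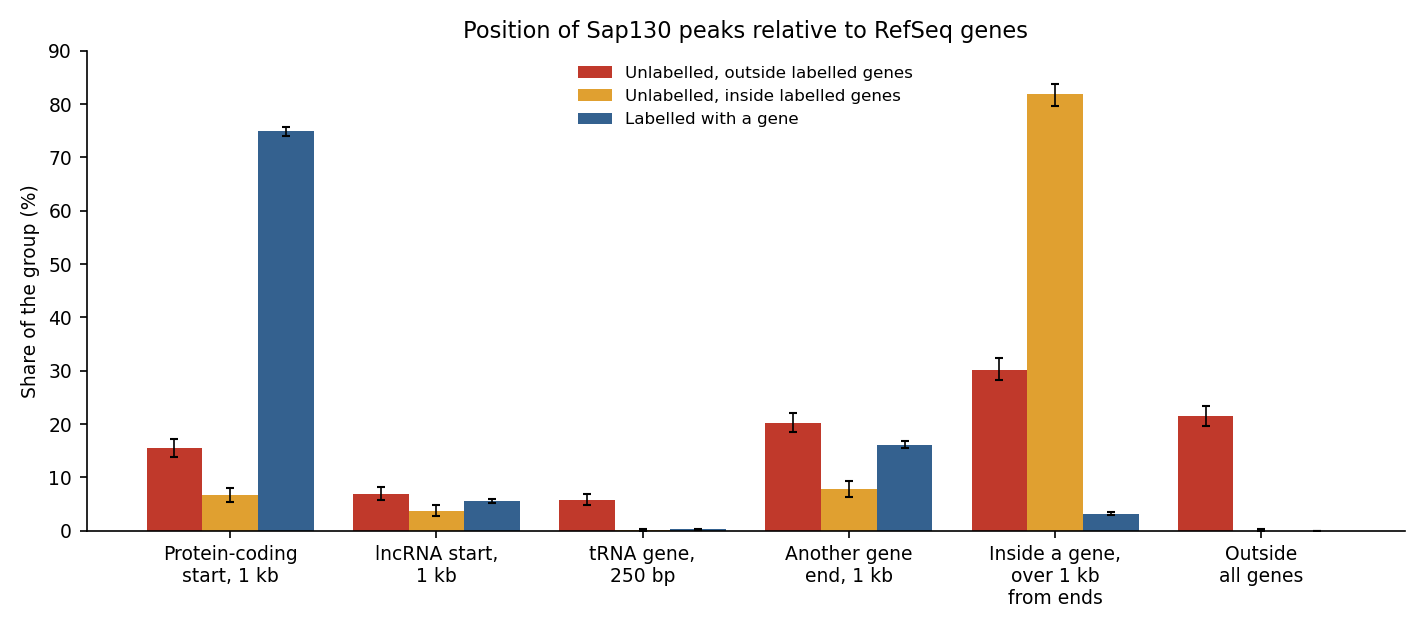
Share of peaks in each class of position relative to RefSeq genes (GRCm38.p6), for unlabelled peaks outside labelled genes (red, n = 1963), unlabelled peaks under 2000 bp inside labelled genes (yellow, n = 1385) and labelled peaks (blue, n = 12656); bars carry exact 95% binomial intervals. The peaks outside labelled genes are spread over all 6 classes, with 5.71% at tRNA genes and 21.4% outside all genes.

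Taken over any gene and biotype, 853 of the 1963 centres (43.5%, 41.2 to 45.7) lay within 1 kb of a gene end, against 12.1% of unlabelled peaks inside labelled genes (168 of 1385, 10.5 to 14.0) and 86.2% of labelled peaks. Inside a RefSeq gene that carried no label lay 1117 (56.9%, 54.7 to 59.1). The nearest of these ends belonged to a protein-coding gene for 472 peaks, 462 of them with a curated transcript, and 176 of the 472 were ends of genes labelled elsewhere. It belonged to an lncRNA gene for 234 peaks, of which 78 had a curated transcript, to a tRNA gene for 105, to a small nuclear RNA gene for 14 and to a pseudogene for 14. MicroRNA genes accounted for 6, miscellaneous RNA genes for 4, Y RNA genes for 2 and transcribed pseudogenes for 2.

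Annotated starts that the list had not labelled were covered by some of these peaks. Within 1 kb of a protein-coding start in the RefSeq table lay 305 centres at 246 genes, including those beside tRNA genes, and 179 of the peaks covered the start itself. Their centres were downstream of the start in 214 cases (70.2%), with a median of +170.5 bp. For 299 of the 305 the gene had a curated transcript, so that most of these genes were not predictions. For 72 of the 305 peaks the gene was labelled elsewhere in the list, that is at another start. These included, in order of place, Srpk2, a kinase of splicing factors (1167 bp, place 2123), Arid1a, a subunit of the SWI/SNF remodelling complex (1807 bp, place 3055), Kansl1, a scaffold of a histone acetyltransferase complex (854 bp, place 4464), Zbtb18, a zinc finger repressor of neurogenesis (508 bp, place 4746), and Cic, the Capicua repressor (723 bp, place 4755). The earliest peaks at protein-coding starts were those of Pitpnm2, Cep135 and Sipa1l2 above, Dnajb5 (1131 bp, place 887), Klhl2 (1574 bp, place 1004), Mknk2 (1216 bp, place 1057), Strbp, an RNA-binding protein (1634 bp, place 1184), and Dgcr6 (1067 bp, place 1189).

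Starts of lncRNA genes accounted for 151 centres at 124 genes, and for 101 of these the gene had a predicted model only. The peaks were narrower than at protein-coding starts, with median widths of 390 and 551 bp for all peaks within 1 kb. The first were Gm26901 on chromosome 1 (465 bp, place 917), Gm31585 on chromosome 2 (617 bp, place 962), Gm38882 on chromosome 6 (1305 bp, place 1117), Gm36445 on chromosome 13 (1132 bp, place 1922) and Gm38618 on chromosome 3 (1656 bp, place 2679). The peak at Gm38618 also had its centre 585 bp from Mex3a, which encodes an RNA-binding protein.

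Promoter windows overlapped by these peaks were rich in CG, but less so than windows under labelled peaks. The 383 windows of 300 bp overlapped by at least 1 base had a median of 20 CG dinucleotides (quartiles 13 and 31), against 24 (17 and 32) in 10856 windows under labelled peaks and 4 (2 and 7) in 21372 windows under no peak. GGGCGG was found in 63.2% of them, in 71.3% of windows under labelled peaks and in 35.6% of all windows. CCGGAAG was found in 10.2%, against 20.4% under labelled peaks and 8.86% of all windows. The NRF1 motif was found in 0.783%, against 2.52% under labelled peaks and 0.966% of all windows, and CACGTG in 8.88%, against 11.3% and 7.15%. AAGATGGC was found in 2.61%, against 5.09% under labelled peaks and 2.74% of all windows, and TGACGTCA in 3.92%, against 3.62% and 1.79%. CCAAT, a short motif, was found in 33.9%, against 37.6% under labelled peaks and 37.4% of all windows. Several of these motifs contain CG themselves, and CG content was not held equal between the groups.

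The 2 kinds of promoter differed in CG. The 122 lncRNA windows overlapped by these peaks had a median of 18 CG dinucleotides, against 27 in 1133 lncRNA windows under labelled peaks and 3 in 10260 under no peak. The 261 protein-coding windows had a median of 21, against 24 in 9723 under labelled peaks and 4 in 11112 under no peak. GGGCGG was found in 54.9% of the lncRNA windows and in 67.0% of the protein-coding windows overlapped by these peaks, compared with 16.3% and 46.2% of all windows of the same kinds.

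Many peaks flanked labelled promoters on their upstream side. Within 5 kb of the nearest labelled start lay 348 centres, 312 upstream of it and 36 downstream. Since the inside of labelled transcripts is excluded, a downstream peak has to lie beyond the end of a short gene, and the side is largely set by the choice of peaks. The density fell with distance upstream. There were 98 centres between 1 and 1.5 kb upstream, 64 between 1.5 and 2 kb, 70 between 2 and 3 kb and 80 between 3 and 5 kb. None lay within 1 kb, the distance within which the list placed its labels. The edges of 376 peaks (19.2%, 17.4 to 21.0) were within 5 kb of a labelled peak, against 70.3% (67.8 to 72.7) of unlabelled peaks inside labelled genes.

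**Figure D3:**
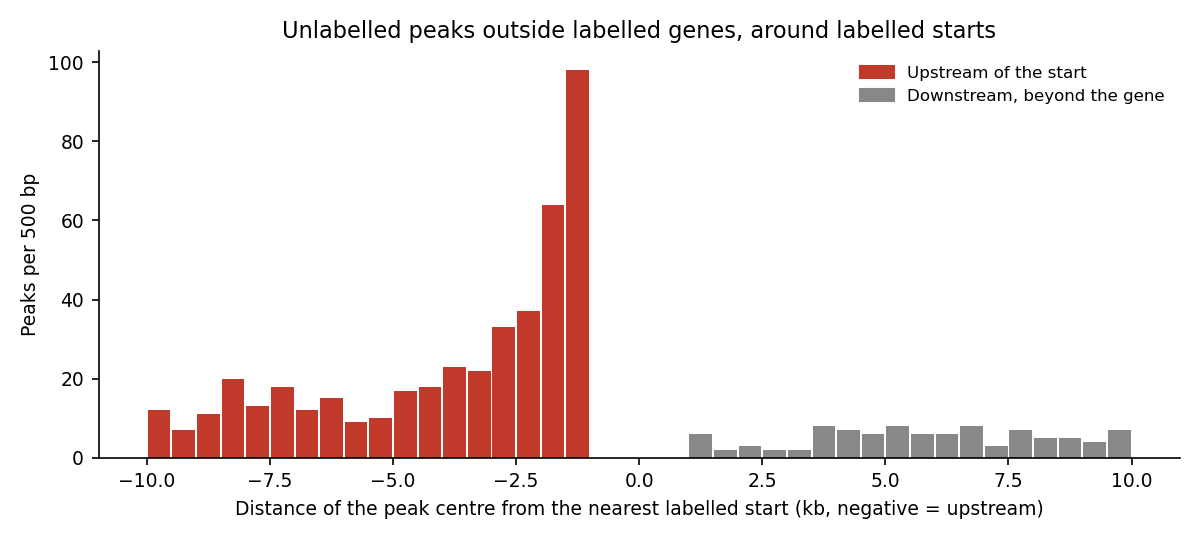
Number of unlabelled peaks outside labelled genes per 500 bp of distance between the peak centre and the nearest labelled start, up to 10 kb, with upstream positions negative (red) and downstream positions beyond the gene positive (grey). The highest bar stands at 1 to 1.5 kb upstream with 98 peaks, and none lies within 1 kb.

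The earliest of the peaks centred within 3 kb upstream of a labelled start belonged to varied genes. After Foxo3 came Ubald1 (790 bp, place 999, 1163 bp upstream), Cops5, a subunit of the COP9 signalosome (627 bp, place 1792, 1911.5 bp upstream), Sdccag8, a centrosomal ciliopathy gene (1753 bp, place 2068, 1543.5 bp upstream), and Bmpr2, a receptor for bone morphogenetic proteins (1962 bp, place 2072, 1031 bp upstream). Smim4 had a 1053 bp peak 2398.5 bp upstream (place 2204) and Large a 951 bp peak 1003.5 bp upstream (place 2552). Igf2bp1, an RNA-binding protein of fetal tissue, had an 1799 bp peak 1313.5 bp upstream (place 2409), and Arid2, another SWI/SNF subunit, had a 1362 bp peak 2212 bp upstream (place 2597). At the other extreme, 799 peaks were over 50 kb from every labelled start.

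Peaks inside genes and over 1 kb from gene ends were the largest class. The earliest, after Sft2d3 and Btbd19, were in the lncRNA gene Gm52681 (1070 bp, place 1215), in the gene model Gm39002 (1415 bp, place 1254) and in Spire1, an actin nucleator gene on chromosome 18 (1752 bp, place 1418). Inside protein-coding genes of either kind, labelled or not, lay 1000 of the 1963 centres. Outside all genes, the earliest after Smim17 and Foxo3 were a 515 bp peak at place 1428 (chromosome 13, 48546004 to 48546519), 7989.5 bp from the let-7 gene Mirlet7a-1, an 803 bp peak at place 1597 2932.5 bp from Hook2, a microtubule linker, and an 835 bp peak at place 1620 6730.5 bp from the pseudogene Gm2420. Ccnd1, which encodes cyclin D1 and carries no label in the list, had a 674 bp peak 3468 bp away at place 1737. From every protein-coding gene, 135 peaks (6.88%, 5.80 to 8.09) were over 50 kb away and 61 over 100 kb. Over 50 kb away were 1.59% (0.998 to 2.40) of unlabelled peaks inside labelled genes and 0.300% (0.213 to 0.412) of labelled peaks, which the label or the choice of peaks places near genes. The farthest was a 233 bp peak at place 15494 on chromosome 4 (30447759 to 30447992), 1480 kb from Epha7.

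The widest peaks had diverse positions. The 1999 bp peak at place 8843 on chromosome 19 overlapped the tRNA gene n-TLtaa4, 17175.5 bp from Osbp. The 1996 bp peak at place 9399 lay in St7 on chromosome 6, and the 1988 bp peak at place 4120 in Tln2, a talin gene, 594 bp from its end. The 1982 bp peak at place 1349 lay 622 bp downstream of the start of Srek1, a splicing regulator. The 1972 bp peak at place 6144 lay between the lncRNA gene Gm30731 and Pou3f2, a POU factor of neural development, with its centre 1377 bp from Pou3f2.

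tRNA genes were a recurrent position. Of 403 nuclear tRNA genes in the RefSeq table, 123 (30.5%, 26.1 to 35.3) had a peak outside labelled genes within 250 bp, 34 had another Sap130 peak only and 246 had none. The 112 peaks concerned were 5.71% of the 1963, against 1 of 1385 unlabelled peaks inside labelled genes (0.0722%, 0.00183 to 0.402) and 35 of 12656 labelled peaks (0.277%, 0.193 to 0.384). The choice of peaks outside labelled transcripts bears on this contrast, and the window of 250 bp was chosen after the data were seen. The median width was 547.5 bp (quartiles 347.75 and 773.25), against 420 bp for the other peaks outside labelled genes. Of the 112, 56 overlapped a tRNA gene and 56 lay beside one, with a median gap of 61.5 bp. Outside all other genes lay 86, and 71 had another of the 1963 peaks within 1 kb.

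The amino acids differed in their share of tRNA genes with such a peak. Tryptophan genes had 5 of 8 (62.5%, 24.5 to 91.5), proline genes 9 of 16 (56.3%, 29.9 to 80.2), threonine genes 9 of 17 (52.9%, 27.8 to 77.0) and tyrosine genes 5 of 10 (50%, 18.7 to 81.3). Arginine genes had 11 of 24 (45.8%) and leucine genes 11 of 25 (44%). Alanine genes had 5 of 33 (15.2%, 5.11 to 31.9), and cysteine genes had 2 of 57 (3.51%, 0.428 to 12.1). The interval of the cysteine genes did not overlap those of the first 6 amino acids named, whereas the intervals of all amino acids other than cysteine overlapped each other. Cysteine genes are concentrated on chromosome 6, where 49 of 53 tRNA genes are of this kind and none had a peak outside labelled genes, which allows a share of up to 5.66% of the 53. On chromosome 13, 35 of 105 tRNA genes had one, and on chromosome 11, 31 of 47. tRNA genes of 1 kind are near-identical copies, and the sources used here do not state what was done with reads that match several places, so the share of reads that could be placed at each copy is unknown.

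**Figure D4:**
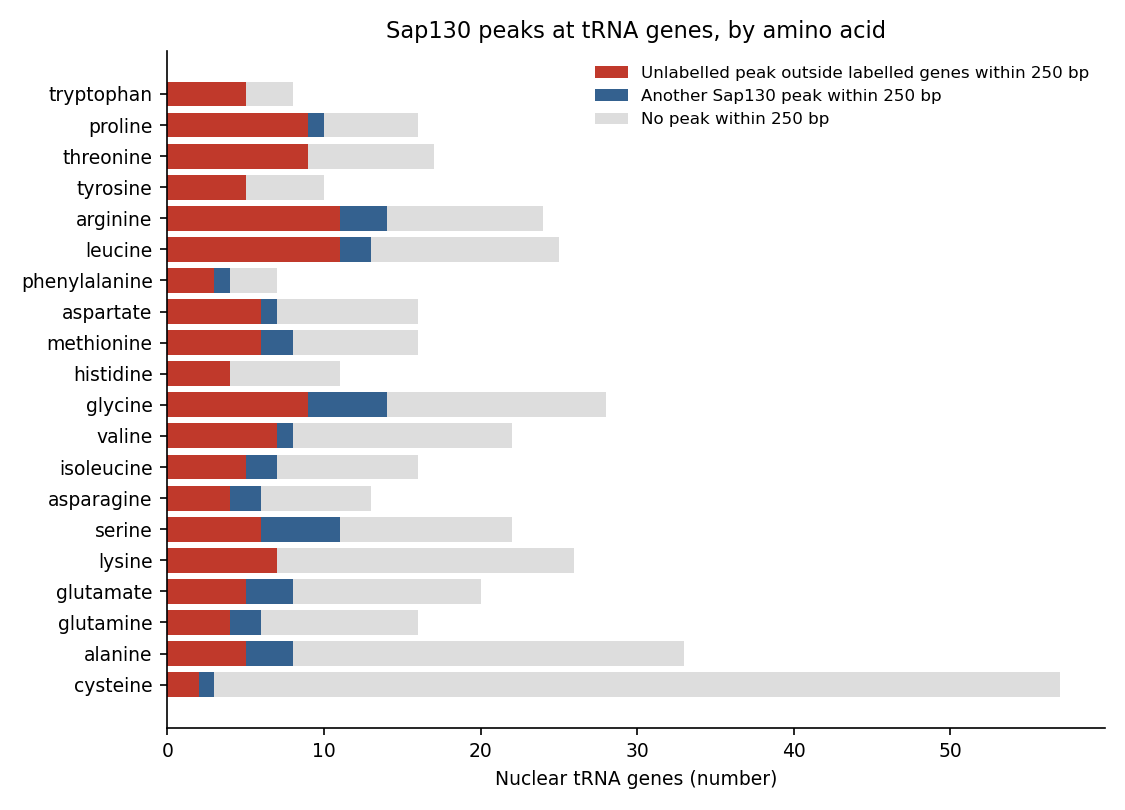
Number of nuclear tRNA genes by amino acid with an unlabelled peak outside labelled genes within 250 bp (red), with another Sap130 peak only (blue) and with no peak (grey), ordered by the red share. Tryptophan genes are highest at 5 of 8 and cysteine genes lowest at 2 of 57.

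The earliest peak at a tRNA gene was a 483 bp peak at place 3826 on chromosome 11 (79704037 to 79704520), 130 bp from n-TTcgt3, a threonine tRNA gene. A 1091 bp peak at place 5177 on chromosome 7 (120835096 to 120836187) overlapped n-TLtag1, a leucine tRNA gene. A 727 bp peak at place 6791 on chromosome 3 lay 24 bp from the lysine tRNA gene n-TKctt16, and a 587 bp peak at place 7264 on chromosome 1 overlapped n-TLcag3. The other peaks at tRNA genes stood later in the list.

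At 10 tRNA genes 2 of these peaks lay on either side with none over the gene. The median gap between the flanking peaks was 207.5 bp, and the median length of a tRNA gene in the table was 72 bp. At n-TGtcc2 on chromosome 1 (171037997 to 171038068) a 724 bp peak ended 57 bp before the gene and a 587 bp peak began 56 bp after it. At n-TPcgg2 on chromosome 1 the flanking peaks were 571 and 436 bp wide and 37 and 55 bp away, and at n-TLcaa1 on chromosome 13 they were 264 and 404 bp wide and 42 and 75 bp away. On chromosome 5, n-TDgtc15 and n-TFgaa7 shared the 316 bp peak between them, with an 891 bp and a 602 bp peak on the outer sides.

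Other small RNA genes were counted by kind. Their counts are of genes overlapped unless a distance is given, and by that measure 16.1% of tRNA genes were overlapped. Both Y RNA genes, whose RNAs bind the Ro protein, had a peak within 250 bp: Rny3 was overlapped by an 861 bp peak at place 12327 and Rny1 lay beside a 680 bp peak at place 8008, both on chromosome 6. Of 997 genes that RefSeq classes as small nuclear RNA, 6 were overlapped (0.602%), including Rnu3a and Rnu3b3 of the U3 type. Of 1330 genes that RefSeq classes as small nucleolar RNA none was overlapped, which allows a share of up to 0.226%. That class leaves out the U3 genes above, so the 0 does not cover them. Labelled peaks overlapped 44 of the 1330. Of 1228 microRNA genes 2 were overlapped, Mir8120 on chromosome 3 (986 bp, place 9483) and Mir8109 on chromosome 8 (1630 bp, place 5568), against 88 overlapped by labelled peaks. The list labels some small nucleolar RNA and microRNA genes themselves. Peaks so labelled, or inside labelled genes, are by choice not among the peaks counted here, which bears on both contrasts. None of 62 ribosomal RNA genes in the table was overlapped by a labelled or unlabelled nuclear Sap130 peak, which allows a share of up to 4.84%. Mitochondrial peaks were left out of this count.

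Some microRNA hairpins had several of these peaks nearby. Of 1005 hairpins in the RefSeq table, 57 (5.67%) had a peak centre within 10 kb, a distance chosen after the data were seen, and the nearest was upstream of the hairpin for 36. The 13 hairpins with 3 or more such peaks had the nearest one upstream in 10 cases. Besides members of the families printed above, they were Mir3083 and its overlapping gene model Gm51291 (5 peaks), Mir1897 (4), Mir1905 (3) and Mir193a (3). The let-7 seed printed above was carried by 13 hairpins, of which 5 had a peak within 10 kb. Mir99a and Mirlet7c-1 on chromosome 16, which are neighbours, had the same 5 peaks within 10 kb, the nearest a 402 bp peak 2283 bp upstream of Mir99a (place 15172). All 5 stood late, between places 13226 and 15841, and formed a group of 2395 bp that was 477866 bp from the nearest protein-coding gene, Usp25. Mirlet7e and Mir125a on chromosome 17 had 4, the nearest a 1495 bp peak 2519.5 bp upstream of Mirlet7e (place 7838). Mirlet7a-1 and Mirlet7f-1 on chromosome 13 had 3 and Mirlet7d of the same cluster 1, the nearest a 552 bp peak 7221 bp upstream of Mirlet7a-1 (place 3647).

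Mir137 on chromosome 3 had 4 peaks within 10 kb, the nearest 217 bp wide and 1872.5 bp upstream (place 14622). Mir7-2 on chromosome 7 had 3, the nearest a 562 bp peak 3993 bp upstream (place 10848), and Mir7b had 1, 8536.5 bp downstream. Mir9-2 on chromosome 13 had 2, the nearest a 1218 bp peak 4626 bp upstream (place 8265), and Mir9-1 on chromosome 3 also had 2, the nearest 382 bp wide and 8124 bp upstream (place 9000). Hairpins of 1 cluster share their peaks, so these counts are not independent.

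The peaks often lay in groups. Another of the 1963 was within 5 kb of 799 (40.7%, 38.5 to 42.9), and chaining gaps of up to 5 kb gave 1486 groups, of which 1164 held a single peak and 93 held 3 or more. The 93 groups contained 341 peaks (17.4%), and 18 of them included a peak at a tRNA gene. The largest held 11 peaks over 17969 bp around Meis2, a homeobox gene of the forebrain, on chromosome 2 (116054693 to 116072662). The next 4 held 6 each, at Cdon, a co-receptor for hedgehog (5067 bp), Nfib, a nuclear factor of neural progenitors (7994 bp), Tubb2b, a tubulin of young neurons (8909 bp), and Nrxn3, a presynaptic adhesion gene (3442 bp). At Cdon, which carried no label, a 1191 bp peak at place 2801 was accompanied by 5 peaks of 247 to 750 bp at places 13797 to 15975, all inside the gene. At Nrxn3 all 6 lay inside the gene, were 217 to 526 bp wide and stood at places 12759 to 16102. At Tubb2b all 6 lay outside the gene, the nearest centre 233.5 bp from it, with widths of 350 to 740 bp.

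Assigned to the nearest protein-coding gene within 50 kb, 1828 of the 1963 peaks fell to 1240 of 21523 genes (5.76%). Counting every protein-coding gene within 50 kb of a peak centre, nearest or not, 3198 genes (14.9%) had one. A single peak fell to 893 genes, 2 to 229, 3 or 4 to 95 and 5 or more to 23. The 23 genes included regulators of neural development and chromatin, here named after their counts were seen. Meis2 had 13, Sox2, a factor that maintains neural progenitors, had 11, Bcor, a Polycomb-associated corepressor gene on X, had 9, and Trim27 had 9, of which 8 lay at tRNA genes. Bahcc1, a chromatin protein gene, Pou3f3, a neural POU factor, and Skida1 had 8 each. Pde4d, a cyclic AMP phosphodiesterase, and Pou3f2 had 7 each. Lhx2, a forebrain homeobox gene, Nfib, Tubb2b, Tuba1a, a tubulin of neurons, Nrxn3 and Ppargc1a, a coactivator of mitochondrial genes, were among those with 6. Tex14 and Btn1a1 also had 6, and 5 of those of Btn1a1 lay at tRNA genes. Abt1 had 5, all at tRNA genes.

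The arrangement around these starts differed from gene to gene. At Meis2, which the list did not label, an unlabelled peak of 4368 bp covered the start (place 7423). Around that start, 11 narrower peaks lay from 8043 bp upstream to 9926 bp downstream. The 1474 bp peak at place 8074, upstream of that start, still had its centre inside the RefSeq span of Meis2. At Sox2 a labelled peak of 4248 bp covered the gene (place 8259), and 11 narrower peaks of 217 to 1449 bp lay from 10301 bp upstream to 14732 bp downstream, at places 12767 to 16057. At Pou3f3, 4 labelled peaks lay around the start and an unlabelled peak of 3970 bp over the gene, while 8 narrower peaks lay between 5602 and 18771 bp downstream. At Pou3f2, without a label, an unlabelled peak of 4898 bp covered most of the gene, with 7 narrower peaks between 3184 bp upstream and 10967 bp downstream. At Lhx2 a 1372 bp peak at place 10794 covered the outermost annotated start, which carried no label, while the 2 labelled peaks lay 11386 to 13596 bp further into the gene. Nr2f2, a nuclear receptor gene, had a labelled peak of 3818 bp and 4 narrower peaks outside the labelled transcript. Mef2c, a factor of heart and neurons, had 2 such peaks within 25 kb of its start and no other Sap130 peak in that span.

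**Figure D5:**
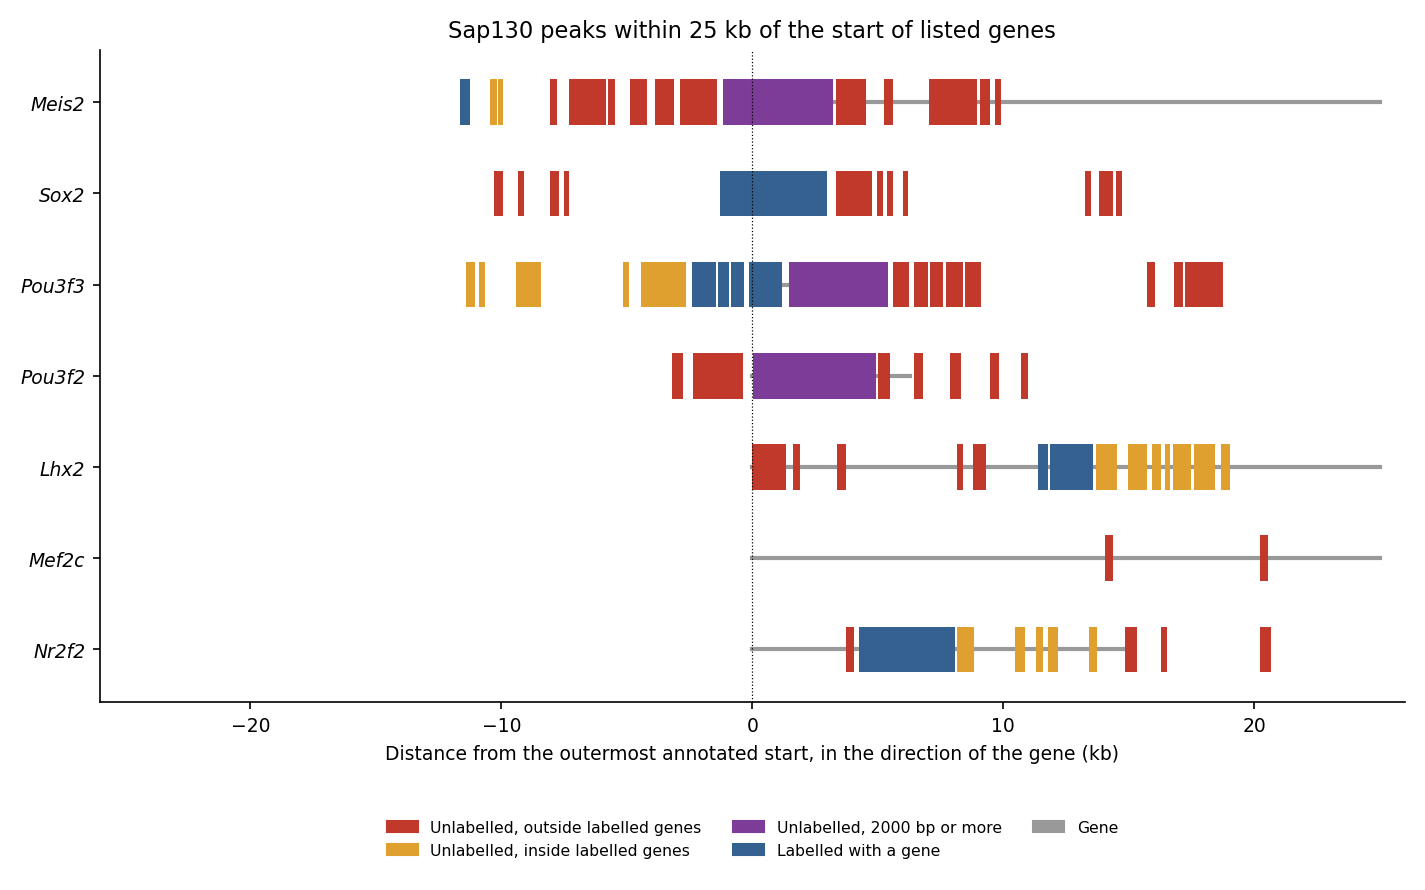
Sap130 peaks within 25 kb of the outermost annotated start of 7 listed genes with at least 4 unlabelled peaks outside labelled genes and a RefSeq promoter window, drawn to scale in the direction of each gene; colours give unlabelled peaks outside labelled genes (red), unlabelled peaks inside labelled genes (yellow), unlabelled peaks of 2000 bp or more (purple) and labelled peaks (blue), and the grey line is the gene. At Meis2, Sox2 and Pou3f2 a wide peak at the gene has narrower red peaks on either side, and at Pou3f3 on the downstream side only.

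Listed genes were counted where they were the nearest gene to such a peak. Of 17 Sox and POU factors, 9 (52.9%, 27.8 to 77.0) had at least 1 of the peaks, against 5.76% of all protein-coding genes. Sox2, Pou3f3 and Pou3f2 led with the counts above, and Sox4, Sox5, Sox21, Pou3f4 and Pou6f1 had 2 each and Sox6 had 1. The 2 peaks of Sox4, which was not labelled, were 931 and 1074 bp wide and stood at places 5808 and 7225, earlier than all 11 of Sox2. Genes differ in the span over which they are the nearest gene, here their own length plus up to 50 kb on each side to the midpoint with the next gene. That span had a median of 104 kb for the Sox and POU factors and 44.9 kb for all protein-coding genes, and its part in the counts was not tested. The shares rest largely on late peaks, since among the first 8115 peaks of the list 23.5% of the Sox and POU factors had one, against 1.38% of all protein-coding genes.

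Of 24 radial glia and neural progenitor markers, 10 had a peak (41.7%, 22.1 to 63.4, median span 102 kb). Besides Sox2 they were Nr2f2 with 4 and Hes1, an effector of Notch, Msi1, Msi2, Id2, Nr2e1 and Nr2f1 with 2 each, and Pax6 and Id3 with 1 each. The 2 peaks of Hes1 were 517 and 789 bp wide, stood at places 5325 and 5385, and had their centres 1810.5 and 1033.5 bp from the gene, which carried no label. Of 40 forebrain and regional factors, 15 had a peak (37.5%, 22.7 to 54.2, median span 67.4 kb). Besides Meis2 and Lhx2 they included Otx2, a factor of the anterior brain, and Tbr1, a factor of cortical neurons, with 3 each. Dlx2, Dlx5, Otx1 and Zic1 had 2 each, and Dlx1, Fezf2, Irx3, Lhx8, Pax6 and Zic2 had 1 each. Of 30 autism-associated genes, 12 had a peak (40%, 22.7 to 59.4, median span 175 kb). They included Chd2, a chromatin remodeller, with 4 and Tbr1 with 3. Chd8, another remodeller, had peaks of 492 and 1266 bp, the wider at place 4269, and Grin2b, a glutamate receptor subunit, an 1808 bp peak at place 7117.

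In the lists of signalling, neuronal and guidance genes the shares were 22.6 to 25%, against 5.76% of all protein-coding genes, and their intervals overlapped those of the lists above. Of 32 Notch, Wnt and hedgehog genes, 8 had a peak (25%, 11.5 to 43.4, median span 84.7 kb), with 4 at Shh, the hedgehog ligand, 3 at its receptor Ptch1, 2 each at Hes1, Lef1 and Axin2, and 1 each at Notch3, Dll1 and Wnt3a. The widest peak of Ptch1 was 1647 bp, while the 4 of Shh were 219 to 413 bp, inside the gene, at places 11954 to 15275. Of 22 neuronal markers, 5 had one (22.7%, 7.82 to 45.4, median span 158 kb), namely Slc17a6, a vesicular glutamate transporter, with 3, Rbfox3 with 2, and Dcx, Snap25 and Celf4 with 1 each. Of 31 axon guidance genes, 7 had one (22.6%, 9.59 to 41.1, median span 306 kb), namely Robo1 with 3 and Robo2, Robo3, Epha3, Epha4, Efna5 and Sema6d with 1 each.

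The remaining lists are set against the same 5.76% of all protein-coding genes. Of 30 cell cycle genes, 5 had a peak (16.7%, 5.64 to 34.7, median span 29.99 kb): Ccnd1 and Cdk6 with 2 each and Ccne1, Aurkb and Wee1 with 1 each. Of 24 congenital heart disease genes, 3 had one (12.5%, 2.66 to 32.4), including Mef2c and Nr2f2 with 4 each. Of 26 Sin3-HDAC genes, 2 had one (7.69%, 0.946 to 25.1), the peak at place 59 upstream of Foxk1 and a 1572 bp peak in Morf4l1, a chromodomain subunit, at place 4575. Of 38 Hox genes, Hoxb2 and Hoxd3 had 1 each (5.26%, 0.644 to 17.7, median span 11.0 kb), and of 29 cytosolic ribosomal protein genes none had one, which allows a share of up to 10.3% (median span 11.4 kb). With every gene within 50 kb counted, nearest or not, a peak was found for 26.9% of the Sin3-HDAC genes, 36.8% of the Hox genes and 27.6% of the ribosomal protein genes, against 14.9% of all protein-coding genes. Here 1 peak counts for every gene within 50 kb of it, so close neighbours such as Hox genes share peaks. Such counts are not independent, and the part of gene density in them was not tested. Some genes stand in more than 1 list, for example Sox2, Pax6, Hes1, Tbr1 and Nr2f2.

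Markers of the cells that embryonic brain tissue can hold were as follows. Among neural markers, 2 of 7 progenitor genes (28.6%, 3.67 to 71.0), Sox2 and Pax6, had a peak nearest to them. So did 2 of 6 neuronal genes (33.3%, 4.33 to 77.7), Dcx and Snap25, the peak of Snap25 being 34543 bp away. Among other cell types, 1 of 10 erythroid genes had one (10%, 0.253 to 44.5), a 619 bp peak in Klf1 at place 12354. These intervals overlapped each other, and the share over all protein-coding genes was 5.76%. Median spans were 57.4 kb for progenitor, 158 kb for neuronal and 14.4 kb for erythroid genes. None was found for 10 microglia and immune genes, 10 endothelial and mural genes or 10 genes of adult non-neural organs, each of which allows a share of up to 30%, or for 9 genes of meninges and choroid plexus, which allows up to 33.3%. In a tissue of mixed cells, a weak peak in all cells and a strong peak in few cells cannot be told apart.

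The peaks were found on all autosomes and X. Their share of a chromosome's peaks was highest on chromosome 13, at 17.8% (129 of 723, 15.1 to 20.8), and lowest on chromosome 19, at 7.14% (39 of 546, 5.13 to 9.64), with 12.1% over all nuclear peaks. On chromosome 13, 33 of the 129 lay at tRNA genes, and the share without them was 13.3%. On X it was 11.4% (62 of 542, 8.88 to 14.4).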

How the data were processed

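One Sap130 ChIP library and 1 input library of E13.5 brain were available as the peak table the authors deposited. Per the submitters' processing notes the tools were Bowtie 1.1.2 and MACS2 2.1.0.20140616, and the build was GRCm38 (mm10). The sources used here state no settings, thresholds or treatment of reads that match several places. The deposited columns hold coordinates and labels, whose unit is neither a count nor a score. Coordinates are printed as deposited.

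From the table, peaks were classed by the rule above, and distances were taken to 49657 RefSeq genes (GRCm38.p6). Annotation lines starting below 3000000 bp on nuclear chromosomes other than Y, which hold scaffold coordinates, were dropped. Starts and strands came from the 32817 RefSeq promoter windows, which include none on chromosome 18. The calculations used Python 3.11.15, numpy 2.4.6, pandas 2.3.3, scipy 1.17.1 and matplotlib 3.10.9, and were tested on simulated data.

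The peaks and the 12 gene lists and 7 marker lists were chosen with earlier results of these data known. Peaks named are the first 10 by place, the 5 widest, the first of each class and biotype, those nearest to listed genes, the 5 largest groups and those beside the width limit. The distances used for tRNA and microRNA genes, and the alternatives for tRNA genes and for gene lists in the first 8115 peaks, were chosen after seeing the data. The alternatives changed windows, annotation, width limit, chromosomes and the part of the list used. Results for some listed genes are not reported here.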

Additional observations from a re-analysis of the deposited data

Results flagged for a closer look

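The list contained 4 unlabelled peaks under 2000 bp on the mitochondrial chromosome, which the nuclear comparisons leave out. They were picked out because their number is above the 3 that a count of 0 allows, a limit for picking results and not a test. They were 1593, 1538, 934 and 1390 bp wide and stood at places 9046, 9883, 10133 and 16042. No read total is given, so their height against the input is unknown.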

How the results depend on the processing

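No paired analysis was possible because the design holds a single ChIP and a single input library. Stricter thresholds by score could not be run, since the table used here gives none. Of 105 alternatives to 29 results, 67 gave a value within the interval of the reported one (for the number of peaks, within 1.5 times) and 38 moved beyond it. The cause was not tested, except where fewer peaks or genes enter. Some alternatives could not move: the windows of 500 bp and 2 kb do not enter the share inside unlabelled genes. Gene lists are short and their intervals wide, so the number within the interval does not measure stability.

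In the first 8115 peaks there were 327 peaks outside labelled genes. Of these, 55.0% lay within 1 kb of a gene end, 66.1% inside unlabelled genes and 14.7% outside all genes. With neighbours also taken from the first 8115 peaks only, 11.0% lay within 5 kb of another such peak and 15.3% within 5 kb of a labelled peak. In this part of the list, 2.98% of tRNA genes had a peak outside labelled genes. So did 5% of forebrain factors, 23.5% of Sox and POU factors, 4.17% of progenitor markers and 4.55% of neuronal markers. The share was 6.25% for Notch, Wnt and hedgehog genes and 13.3% for autism-associated genes. Cell cycle genes had 10% and Sin3-HDAC genes 7.69%. Axon guidance, congenital heart disease, Hox and ribosomal protein genes had 0%. Over all protein-coding genes the share was 1.38%.

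The share near a gene end was 29.95% with a window of 500 bp, 60.4% with 2 kb, 49.4% for any base of the peak, 26.7% with protein-coding genes only and 30.4% with curated genes only. The share outside all genes was 24.96% with 500 bp, 16.3% with 2 kb, 41.2% with protein-coding genes only and 36.0% with curated genes only. The share inside unlabelled genes was 61.4% for any base, 41.0% with protein-coding genes only and 45.9% with curated genes only. With a gap of 2 kb, 36.7% lay near another such peak and 12.3% near a labelled peak, and with 10 kb 44.0% and 28.5%. Peaks over 1 kb from every gene end had a median width of 393 bp and a median place of 12866.5. An overlapping peak was found at 16.1% of tRNA genes.

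Counting every gene within 50 kb, nearest or not, 26.9% of Sin3-HDAC genes, 27.6% of ribosomal protein genes and 36.8% of Hox genes had a peak, against 14.9% of all protein-coding genes. Neighbouring genes share peaks in this count.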
